A study of Mus musculus with 2 samples.

Results

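The genes described here are 8 genes of lipid-associated macrophages, the lipid-laden phagocytes that gather in fatty and scarring liver: Gpnmb, Trem2, Mmp12, Lgals3, Itgax, Cd9, Cd63 and Fabp5. They were taken by name from the 22180 genes that the arrays measured through probe sets with exactly 1 gene symbol, and all 8 were found. The genes were chosen by their role in these cells, and selected on earlier results of the same arrays (the E4bp4-LKO minus WT differences), so their differences are a description and carry no test. Liver RNA of male mice was hybridised to 2 arrays, 1 per genotype: wild type (WT), and E4bp4-LKO, which the series title calls E4bp4 deficient. Mice of both genotypes had free access to food and water at 25 °C, in cycles of 12 hours light and 12 hours dark. A high-fat diet started at 2 months of age and lasted 12 weeks. Each array carried RNA pooled from several mice. The number of mice per pool, the hour of collection, and the allele and driver behind the E4bp4-LKO genotype are not stated in the labels. With 1 array per genotype there is no replicate error, no test and no p-value anywhere in these results.

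Lipid-associated macrophages form when macrophages take up lipid from dying or overloaded fat-storing cells. TREM2, a surface receptor for lipids and lipoproteins, signals through the adaptor TYROBP (DAP12) and drives much of this state. The cells build up lysosomes, carry the lysosomal proteins GPNMB and CD63, the surface tetraspanin CD9 and the integrin CD11c (Itgax), and release galectin-3 (Lgals3) and the elastase MMP12. In fatty liver they differ from resident Kupffer cells, which carry CLEC4F and TIM4.

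Of the 8 lipid-associated macrophage genes, 7 read lower on the E4bp4-LKO array than on the WT array. Among these 7 only Cd9 had more than 1 probe set, so each of the others rests on a single one. The eighth, Fabp5, had no settled direction. Gpnmb, Mmp12, Cd63 and Trem2 were lower by at least 1.5-fold, and the first 3 of these by at least 2-fold. Lgals3 and Itgax came close to 1.5-fold, while Cd9 differed little. Values are log2 intensities, so a difference of -1 is a halving of the signal. They are read against a floor of 4.20, the median level of all genes, below which signal and background are hard to separate. The 8 genes lay above this floor in their mean over both arrays, and 6 of them on each array separately. Of the 11090 genes above the floor, 2.06% were lower on the E4bp4-LKO array by at least 1.5-fold, against 4 of these 8. At 2-fold the share was 0.406%, against 3 of 8, and at a looser threshold of 0.32 on the log2 scale it was 8.89%, against 6 of 8. None of the 8 was higher by 1.5-fold, as 1.51% of all genes were. A negative difference of any size was seen in 54.5% of all genes above the floor. Since the choice of the 8 genes drew on these same differences, nothing is read from those shares. The median difference of the 8 was -0.62 (1.54-fold lower, SD between genes 0.68), and that of all genes above the floor was -0.02. In whole liver, fewer cells of a type and less RNA per cell cannot be told apart.

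**Figure D1:**
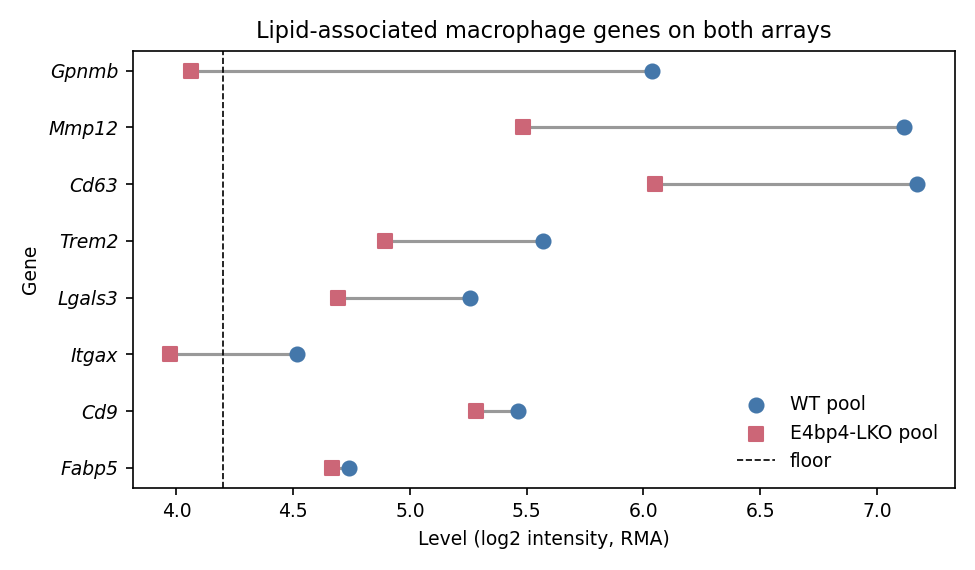
Level of each gene on the WT (circles) and E4bp4-LKO (squares) arrays in log2 intensity, ordered by difference, with the floor of 4.20 as a dashed line. The gap narrows from Gpnmb (-1.98) to Fabp5 (-0.07), and the E4bp4-LKO values of Gpnmb and Itgax lie below the floor.

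The stretches upstream of the start sites of the 4 genes that were lower by at least 1.5-fold are shown because E4BP4 acts on DNA, at an element called the D-box. Sequences are from RefSeq on build GRCm38.p6, each the 250 bases before a listed start, 5′ to 3′ on the gene's strand. Capitals mark matches, on either strand, to any of the motifs searched. These were the D-box (TTATGTAA or TTACGTAA), a looser D-box (TTANGTAA, which includes both forms), the M-box (CATGTG) and E-box (CACGTG) of the lysosomal MiT/TFE factors, AP-1 (TGANTCA) and PU.1 (GAGGAAGT), a macrophage factor. Apart from the looser D-box, which holds the stricter one, no motif's letters contain another's. RefSeq lists 1 start for Gpnmb, Trem2 and Cd63 here and 2 for Mmp12. The windows are Gpnmb at chr6:49036268-49036517, Trem2 at chr17:48346151-48346400, Cd63 at chr10:128909095-128909344 and Mmp12 at chr9:7344147-7344396 and chr9:7347124-7347373, all on the plus strand.
Gpnmb: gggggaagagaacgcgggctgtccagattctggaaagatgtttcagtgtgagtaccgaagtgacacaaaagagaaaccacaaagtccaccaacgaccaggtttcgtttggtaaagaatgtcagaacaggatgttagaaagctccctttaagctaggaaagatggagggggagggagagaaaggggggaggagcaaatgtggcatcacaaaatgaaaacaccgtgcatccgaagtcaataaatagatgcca
Mmp12 start 1: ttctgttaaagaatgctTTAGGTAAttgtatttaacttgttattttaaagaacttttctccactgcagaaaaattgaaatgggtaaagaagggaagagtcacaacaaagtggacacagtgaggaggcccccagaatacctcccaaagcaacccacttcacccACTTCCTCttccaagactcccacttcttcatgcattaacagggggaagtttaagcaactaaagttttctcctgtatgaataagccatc
Mmp12 start 2: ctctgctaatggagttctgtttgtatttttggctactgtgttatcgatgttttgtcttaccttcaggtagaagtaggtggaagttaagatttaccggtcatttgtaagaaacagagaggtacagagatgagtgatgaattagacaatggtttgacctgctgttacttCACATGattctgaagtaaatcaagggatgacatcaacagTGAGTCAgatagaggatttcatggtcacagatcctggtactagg
Cd63: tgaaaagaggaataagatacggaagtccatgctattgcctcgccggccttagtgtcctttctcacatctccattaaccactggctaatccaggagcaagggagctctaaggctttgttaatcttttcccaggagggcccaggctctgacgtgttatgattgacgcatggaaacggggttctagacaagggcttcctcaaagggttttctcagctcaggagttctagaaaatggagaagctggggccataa
Trem2: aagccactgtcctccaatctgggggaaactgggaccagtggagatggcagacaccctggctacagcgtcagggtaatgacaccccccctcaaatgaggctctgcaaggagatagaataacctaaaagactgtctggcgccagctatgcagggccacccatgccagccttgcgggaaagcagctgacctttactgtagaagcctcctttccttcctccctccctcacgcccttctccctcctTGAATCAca

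Of the 8 genes, 7 had at least 1 window in the RefSeq table, 8 windows in all. None of these windows held a D-box, which 0.931% of all 32851 windows of this length held. The looser form was found once, upstream of the first Mmp12 start (TTAGGTAA, 233 to 226 bases before it), and in 2.06% of all windows. AP-1 matches lay upstream of Trem2 (TGAATCA, 9 to 3 bases before the start), of the second Mmp12 start and of Itgax (TGAGTCA in both). That is 3 of 8 windows, against 6.75% of all windows. Gpnmb held an AP-1 match just downstream of its start (TGACTCA, bases 9 to 15 after it). With the 50 bases after each start included, a search added after the data were seen, 4 windows of 4 of these genes matched, as did 7.81% of all windows. A PU.1 match lay 88 to 81 bases before the first Mmp12 start (2.44% of all windows). M-box matches lay upstream of the second Mmp12 start and of Cd9 (12.3% of all windows), and no E-box was found in the 8 windows (6.02% of all windows). A match is a run of letters and says nothing of binding. Where there is none, the letters are absent from that window, and no more.

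Trem2, the lipid receptor, read 5.57 on the WT array and 4.89 on the E4bp4-LKO array. It was lower by 0.67 on the log2 scale, or 1.60-fold lower, and 161 of the 11090 genes had a more negative difference. Trem2 was the gene just past the 1.5-fold mark, and Lgals3 the one just short of it.

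The partners of TREM2 stayed under 1.5-fold. Of 14 genes of its signalling, shedding and membrane partners, 8 lay above the floor, 5 with a negative and 3 with a positive difference, with a median of -0.10. Tyrobp, the adaptor through which TREM2 signals, read 6.43 on the WT array and 6.56 on the E4bp4-LKO array, a difference of 0.12. Pik3ap1, a PI3-kinase adaptor, differed by -0.51, and Plcg2, the phospholipase downstream of SYK, by -0.48. Inpp5d, a lipid phosphatase that restrains such signals, differed by -0.21, and the exchange factor gene Vav1 by 0.26. The sheddase genes Adam10 and Adam17, whose products cut TREM2 from the surface, differed by -0.13 and 0.02, and Ms4a6d by -0.07. Syk was below the floor. Treml4 was the only related TREM gene above the floor, at 6.67 and 6.69.

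Itgax encodes CD11c, an integrin alpha chain of dendritic cells and of macrophages in obese tissue. It read 4.52 on the WT array, little above the floor, and 3.97 on the E4bp4-LKO array, below it. The difference of -0.54 (1.46-fold) shrank to -0.32 with the E4bp4-LKO value raised to the floor. Itgb2, the beta chain that pairs with it, differed by -0.26, from 6.78 to 6.52, and Itgam and Itgal, other alpha chains of Itgb2, by -0.24 and -0.06. Itga4, the alpha chain of a lymphocyte and monocyte homing integrin, was lower by 1.5-fold or more, at 5.21 on the WT array and 4.49 on the E4bp4-LKO array (-0.72). Of 7 leukocyte integrin genes listed beside Itgax, the 4 above the floor all had a negative difference. Dendritic cell markers were on both sides of 0, with Xcr1 at 0.07, Cd209a at 0.22, Ccr7 at -0.04 and Irf8 at -0.11, while Flt3 and Zbtb46 lay below the floor. The summed linear signal of the 9 dendritic cell genes measured was 175 on the WT array and 179 on the E4bp4-LKO array. Only 4 of them lay above the floor, so part of this sum is hard to separate from background.

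Gpnmb, a glycoprotein of lysosomes and of the surface of lipid-laden macrophages, had the largest difference of the 8. It read 6.04 on the WT array and 4.06 on the E4bp4-LKO array, a difference of -1.98 (3.93-fold). Because the E4bp4-LKO value fell below the floor, the size of this difference and its rank among genes are uncertain. With that value raised to the floor Gpnmb was still 3.57-fold lower. The genes of the MiT/TFE factors, which are known to drive Gpnmb and lysosomal genes, differed by less: Tfec by -0.35, Mitf by 0.14 and Tfe3 by 0.03. Tfeb and Pmel, the closest relative of Gpnmb, lay below the floor.

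The tetraspanins CD63 and CD9 are membrane organisers, CD63 of late endosomes and lysosomes and CD9 of the cell surface and of extracellular vesicles. Cd63 read 7.17 on the WT array and 6.05 on the E4bp4-LKO array. This difference of -1.12 (2.18-fold) was the 31st most negative of the 11090 genes, and both values lay well above the floor. Cd9 was measured by 2 probe sets. The brighter read 7.74 on the WT array and 7.46 on the E4bp4-LKO array, a difference of -0.28. The dimmer lay below the floor, at 3.19 and 3.11. Their average, the value used for Cd9, differed by -0.18 (1.13-fold), from 5.46 to 5.28.

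The other tetraspanin genes listed and above the floor stayed under 1.5-fold. Of 8 above the floor, 5 had a negative and 3 a positive difference (median -0.12). Cd81, a broadly expressed tetraspanin, differed by -0.28, the leukocyte genes Cd37 and Cd53 by -0.23 and 0.00, Cd82 by -0.14, Cd151 by -0.09 and Tspan3 by -0.15. Tspan31 differed by 0.08, and Tspan4, a tetraspanin of migrating cells, was higher by 0.51.

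**Figure D2:**
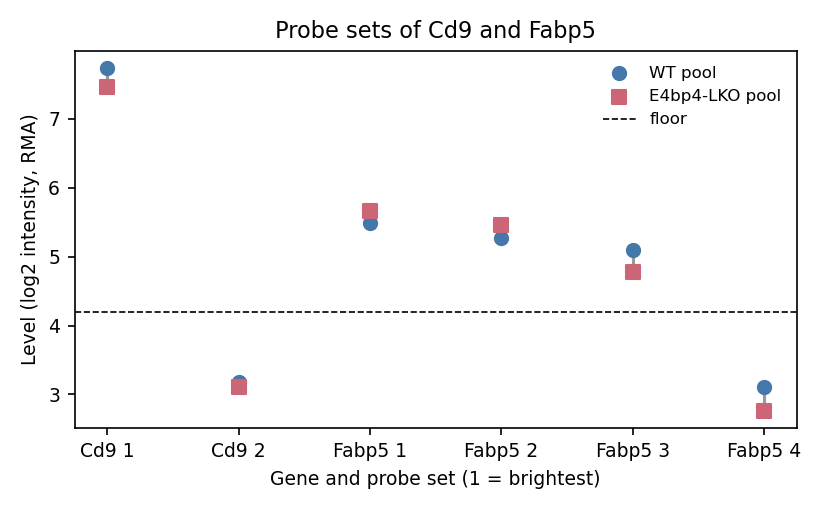
Levels of the 2 probe sets of Cd9 and the 4 of Fabp5 on the WT (circles) and E4bp4-LKO (squares) arrays in log2 intensity, numbered from the brightest, with the floor dashed. The 2 brightest probe sets of Fabp5 were higher on the E4bp4-LKO array and the 2 dimmer ones lower.

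Fabp5 encodes a fatty acid binding protein of macrophages and of squamous epithelium. Only Fabp5 and Cd9 of the 8 genes had more than 1 probe set, and those of Fabp5 disagreed in direction. The 4 probe sets differed by 0.18 (5.49 to 5.67), 0.19 (5.27 to 5.45), -0.31 (5.09 to 4.78) and -0.35 (3.11 to 2.76, below the floor). Averaged, Fabp5 read 4.74 on the WT array and 4.67 on the E4bp4-LKO array, a difference of -0.07. Taken by its brightest probe set it was higher on the E4bp4-LKO array. No direction can therefore be given for Fabp5. Which transcripts, or copies of the gene, each probe set reads was not examined. For scale, among 555 genes with exactly 2 probe sets the SD between those of a gene was 0.22. Among the 9 genes above the floor with exactly 4, Fabp5 included, the median range between probe sets was 0.42. The range of Fabp5 was 0.53, and 66.7% of the 9 had a smaller one. In the rest of the family, Fabp4, which marks adipocytes and lipid-laden macrophages, differed by -0.09 and the liver form Fabp1 by 0.00. Fabp2, Fabp3 and Fabp7 differed by 0.13, 0.17 and 0.07.

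Mmp12 encodes the macrophage elastase, a secreted protease that cuts elastin. It read 7.12 on the WT array and 5.48 on the E4bp4-LKO array, both above the floor, a difference of -1.63 (3.10-fold). It ranked 7th from the bottom of the 11090 genes. A list of 10 other matrix protease and inhibitor genes was read beside it. Of these, 6 lay above the floor and none of the 6 reached 1.5-fold. Mmp2 differed by -0.35, Timp3 by -0.29, Mmp9 by -0.20, Mmp19 by -0.18, Timp2 by -0.06 and Mmp14 by 0.00. Mmp13, a collagenase, had a difference of -0.98 but lay below the floor in its mean (4.29 on the WT array, 3.31 on the E4bp4-LKO array).

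Lgals3 encodes galectin-3, a sugar-binding protein that macrophages secrete and that gathers at damaged lysosomes. It read 5.26 on the WT array and 4.69 on the E4bp4-LKO array, a difference of -0.57 (1.48-fold, rank 248). Lgals1, which encodes the related galectin-1, was lower by 1.5-fold or more, from 8.56 to 7.83 (-0.73). The galectin-3 binding protein gene Lgals3bp differed by -0.36. Lgals4, Lgals8 and Lgals9 differed by 0.01, -0.01 and -0.06. Galectin-1 is also made by stellate cells and other mesenchymal cells.

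**Figure D3:**
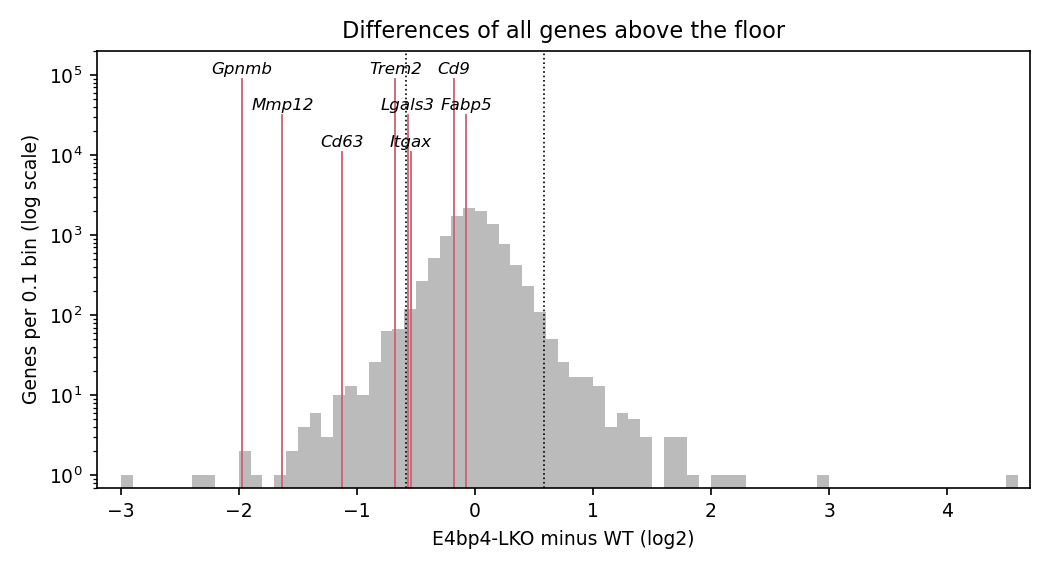
Number of genes above the floor in each 0.1-wide bin of E4bp4-LKO minus WT difference (log2; the count axis is logarithmic), with a line at each of the 8 genes and dotted lines at 1.5-fold. Gpnmb, Mmp12 and Cd63 lie in the sparse lower tail, Trem2 just past the dotted line, and Cd9 and Fabp5 in the bulk of the genes.

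A wider list of 30 genes of this macrophage state, written with earlier results known, was read beside the 8. It was measured for 27, of which 25 lay above the floor. Here 19 had a negative difference and 3 were lower by at least 1.5-fold, none higher by as much, with a median of -0.19. The 3 were Lgals1, Hexa, which encodes a subunit of a lysosomal hexosaminidase (8.23 to 7.60, -0.63), and Lpl, the lipoprotein lipase gene (5.54 to 4.95, -0.59). Cd68, a lysosomal protein of macrophages, followed at 8.27 and 7.84 (-0.43). Grouped by hand, the 6 lipid handling genes Lpl, Lipa, Cd36, Fabp4, Apoe and Plin2 differed by between -0.59 and -0.09. The list's 6 genes with a positive difference, Msr1 (0.22) and Npc2 (0.10) among them, were not placed in this group. The one-sided range of the group therefore depends on the choice of genes, and nothing is read from it. The 5 cathepsin genes, lysosomal proteases, differed by between -0.29 and 0.11. Another 6 genes of lysosomal proteins (Hexa, Acp5, Npc2, Lamp1, Atp6v0d2 and Cd68) differed by between -0.63 and 0.10. Many of these genes are also expressed by hepatocytes. The other 3 genes of the list were not analysed here.

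**Figure D4:**
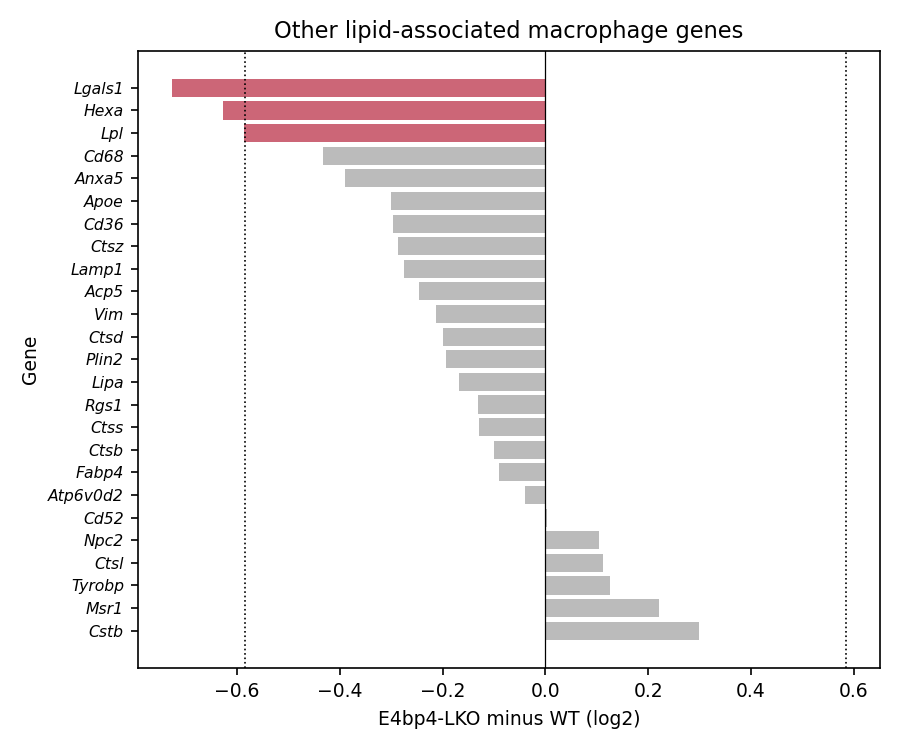
Difference between the arrays (E4bp4-LKO minus WT, log2) for the 25 genes of the wider list above the floor, with dotted lines at 1.5-fold and the 3 genes past it in red. Most bars point to lower values on the E4bp4-LKO array and stay inside the dotted lines, from Lgals1 (-0.73) to Cstb (0.30).

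Genes of macrophages in general lay on both sides of 0. Of 11 pan-macrophage genes above the floor, 7 had a negative difference and 4 a positive one. None was lower by 1.5-fold, and the median was -0.24. Adgre1 (F4/80) read 7.27 and 7.01 and Csf1r, the growth factor receptor that macrophages need, 7.78 and 7.73. Cd14 differed by -0.52 and Mertk, a receptor for dying cells, by -0.41. The lysozyme gene Lyz2 was higher by 0.40, and Fcgr3, an Fc receptor gene, by 0.62, the only 1 past 1.5-fold.

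Resident Kupffer cell genes lay on the other side. Of 11, all above the floor, 10 had a positive difference and none reached 1.5-fold, with a median of 0.21. Clec4f, the defining marker, read 8.73 on the WT array and 8.89 on the E4bp4-LKO array, a difference of 0.17. Timd4 differed by 0.35, Cd163, the haemoglobin scavenger receptor gene, by 0.46, Marco by 0.32 and Vsig4 by 0.30. Whether the 8 genes and the Kupffer genes differ in their response cannot be tested with 1 array per genotype. Of the markers of incoming monocytes, Ly6c2 and Ccr2 lay below the floor on both arrays. Cx3cr1 differed by -0.56, from 5.59 to 5.03, Plac8 by 0.01 and Fn1, which hepatocytes also make, by 0.00. The neutrophil genes S100a8, S100a9 and Ly6g lay below the floor, while Cxcr2 and Csf3r differed by 0.07 and -0.21. That list's summed signal was 110 on the WT array and 108 on the E4bp4-LKO array. Of its 10 genes only 2 lay above the floor, so much of this sum is hard to separate from background.

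**Figure D5:**
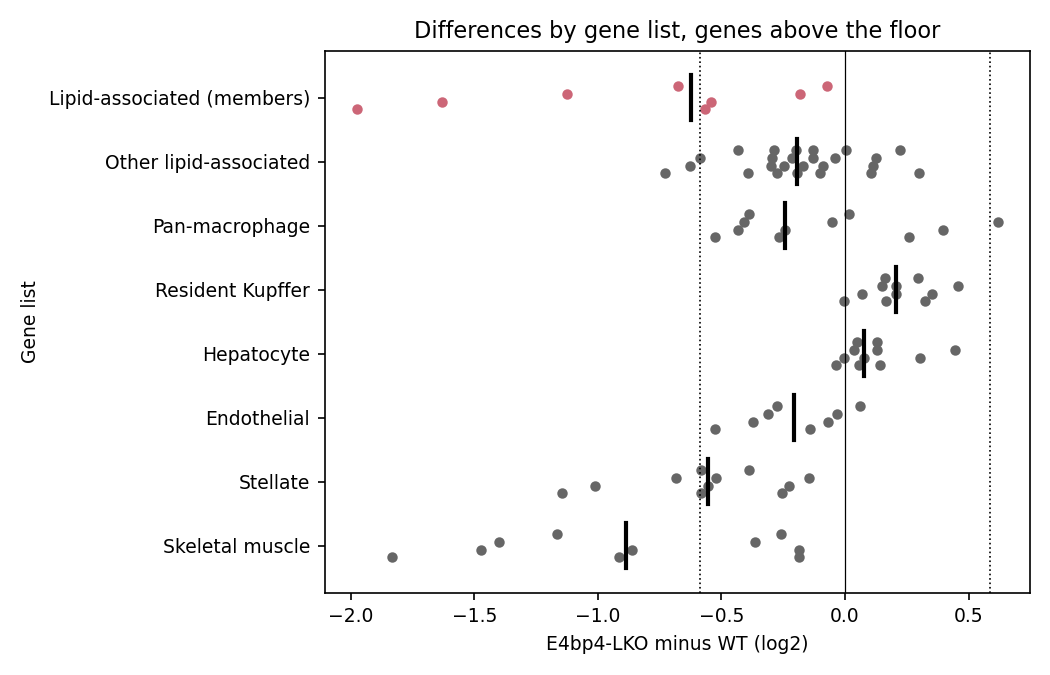
Difference between the arrays (E4bp4-LKO minus WT, log2) for genes above the floor in 8 lists, 1 point per gene, with a bar at each list's median and dotted lines at 1.5-fold. The 8 genes (red, median -0.62) sit lower than the pan-macrophage genes (-0.24) and the Kupffer genes (0.21), and stellate cell and muscle genes are also low (-0.56 and -0.89). The 8 genes were selected on these same differences, so nothing is read from their place among the lists.

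Stellate cell and skeletal muscle genes were also lower on the E4bp4-LKO array. The stellate cell genes had a negative difference in 11 of 11 above the floor, 3 of them by at least 1.5-fold: Col3a1 (-1.15), Col1a1 (-1.01) and Lum (-0.69). Des and Col1a2 followed at -0.58 each, Col1a2 with an E4bp4-LKO value below the floor. Acta2 and Lrat, of activated and of quiescent stellate cells, differed by -0.39 and -0.56. The summed linear signal of the 12 stellate cell genes was 2467 on the WT array and 1902 on the E4bp4-LKO array. Skeletal muscle genes had a negative difference in 10 of 10, 6 of them by at least 1.5-fold, with Myh2 at -1.83, Atp2a1 at -1.47, Myh4 at -1.40 and Myh1 at -1.16. Acta1 (-0.91) and Tnnt3 (-0.86) completed the 6, and Tnnc2, Tcap, Mylpf and Tnni2 differed by between -0.36 and -0.18. Myh4, Myh1 and Mylpf had E4bp4-LKO values under the floor (4.11, 3.82 and 4.15), so the sizes of their differences are uncertain. The summed signal of these 12 genes was 812 and 432. That of the 8 macrophage genes was 528 and 263, a 2.01-fold ratio. This sum is weighted towards Cd63 and Mmp12, the brightest of the 8 on the WT array (7.17 and 7.12). The median over the 8 genes was 1.54-fold lower. The part of stellate or muscle tissue in the differences of the 8 genes was not tested. Squamous epithelium, which also makes Fabp5, galectin-3 and CD9, gave 3 genes lower and 3 higher by at least 1.5-fold, namely Sprr1a (-2.22), Ly6d (-1.91), Sfn (-0.62), Krt4 (2.95), Krt13 (2.26) and Krtdap (1.76). The summed signal of the 13 squamous epithelium genes measured was 1385 and 606. Only 6 of them lay above the floor in their mean, with a median difference of 0.57, and without the floor the median was 0.19. Of these 6, Krt4, Krt13 and Krtdap had WT values under the floor (3.90, 3.26 and 3.45). The sizes of their differences, and with them the median of 0.57, are therefore uncertain. Krt14, Krt6a, Sprr3, Ivl, Dsg3 and Dsc3 lay below the floor on both arrays. The sum is weighted towards the brightest genes on the WT array, Ly6d (9.35) and Sprr1a (9.17). The part of squamous epithelium was not tested either. The adipocyte genes Adipoq, Lep and Plin1 lay below the floor on both arrays, Car3 and Retn differed by 0.12 and -0.12, and Cidec, also a lipid droplet gene of fatty hepatocytes, by -1.57. Of the bile duct genes, Epcam differed by 0.31 and Sox9 by -0.08, and Krt7 and Krt19 were below the floor. Endothelial genes had a median of -0.21, with 7 of 8 negative and none past 1.5-fold. Lyve1 (-0.52), Vwf (-0.37), Cdh5 (-0.31) and Pecam1 (-0.27) lay lowest, followed by Kdr (-0.14), Egfl7 (-0.07) and Stab2 (-0.03), with Clec4g at 0.06. The 11 hepatocyte genes measured were all above the floor with Alb at 12.77 on both arrays and a median difference of 0.08. Cyp3a11 (0.44) and Cps1 (0.30) differed most among them, then Asgr1 (0.14) and Hnf4a (0.13).

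Nfil3, the gene that encodes E4BP4, read 5.94 on the WT array and 4.47 on the E4bp4-LKO array (-1.47). Where its probes lie relative to the deleted part was not examined. The 2 arrays had medians of 3.74 and 3.75 and correlated at r = 0.993 across genes, which are not independent replicates. For 95% of the genes above the floor, the difference lay between -0.54 and 0.49.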

How the data were processed

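The authors deposited a log2 intensity for each probe set on each array. Per the submitters' processing notes, these were made with RMA, and R 3.4.0 is also named. RMA corrects background, equalises the arrays' distributions and summarises probes, and it shrinks differences of dim genes. Array detection calls and probe positions were not used here.

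Of 41345 probe sets, 23521 had 1 gene symbol in the platform annotation, 1814 several and 16010 none; 23328 of the first matched RefSeq by Entrez identifier. Probe sets were averaged per gene and E4bp4-LKO minus WT was taken on the log2 scale. A gene was kept where its mean exceeded the floor, and called at 1.5-fold. Promoters were searched for exact matches. Python 3.11.15 with pandas 2.3.3 was used. The number of arrays limits the precision.

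The 8 members and the 21 other lists were chosen with earlier results of these data known. Named are the 8, Nfil3, every gene above the floor of lists with up to 10 such genes, otherwise the 4 largest differences and defining markers; a few others were named after their values were seen.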

Additional observations from a re-analysis of the deposited data

How the results depend on the processing

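The alternatives were other floors, probe set rules, centring and an intensity trend correction. A floor keeps or drops a gene but cannot change its difference. A probe set rule can change only Cd9 and Fabp5, the genes with more than 1 probe set. For the others only centring and the trend correction could move the value. The differences of Gpnmb, Mmp12, Cd63, Trem2, Lgals3, Itgax and Cd9 kept their sign under every alternative that retained them. Gpnmb ranged from -1.98 to -1.93 and Trem2 from -0.67 to -0.63. Fabp5 did not keep its sign. It read 0.18 by its brightest probe set and 0.018 with only probe sets above the floor averaged. The latter was an alternative chosen after seeing the data. With the floor at the 75th percentile only Mmp12 and Cd63 remained. The count of genes at least 1.5-fold lower was then 2 (1.30% of all genes kept) and the median -1.38, since fewer genes were tested. With both arrays required above the floor the count was 3 of 6 (1.83% of all genes kept). At a threshold of 0.32 on the log2 scale it was 6 of 8 (8.89% of all genes) and at 2-fold 3 of 8 (0.406%). Leaving out each of the 8 genes in turn moved the median between -0.67 and -0.57. No paired analysis was possible because each genotype has 1 array. Dim genes near the floor, Itgax above all, are limited by signal over background.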

Other observations

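Among genes below the floor in their mean, 3 from the macrophage-related lists besides the 8 were lower on the E4bp4-LKO array by at least 1.5-fold. They were named after their values were seen. Mmp13, a collagenase of resolving scar macrophages, read 4.29 and 3.31. Chil3, a lectin gene of alternatively activated macrophages, read 3.31 and 2.51, below the floor on both arrays. Clec10a, a lectin gene of macrophages and dendritic cells, read 4.33 on the WT array and 3.65 on the E4bp4-LKO array. At these levels signal and background are hard to separate, so the sizes of these differences are uncertain.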
